A study of Homo sapiens with 6 samples.

Results

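SR proteins and heterogeneous nuclear ribonucleoproteins (hnRNPs) are the main sequence-specific regulators of pre-mRNA splicing, and their genes were taken from the count tables of RKO, a human colon carcinoma cell line, by name. Every symbol that begins with SRSF and a digit, or with HNRNP, was collected: 42 of the 28278 symbols matched. After 4 pseudogene symbols were left out (no antisense symbol matched), 38 members stayed, namely 12 SR protein genes, 25 hnRNP genes and the readthrough symbol HNRNPUL2-BSCL2, which joins 2 neighbouring genes and was counted apart. The series holds 6 libraries of polyadenylated RNA, 3 from RKO cells with wild-type GSK3B and 3 from RKO cells described as GSK3B knockouts, with no treatment or time course named for either group. The labels name no parental clone, no method of knockout and no culture of origin, so that a knockout line made from 1 clone and a pool cannot be told apart. Replicates are numbered 1 to 3 in each group, and p-values measure only the spread between these libraries, which may be technical.

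SR proteins carry RNA recognition motifs and a tail rich in arginine and serine. They bind exonic enhancers and help recruit the spliceosome to the neighbouring splice sites, and kinases of the SRPK and CLK families phosphorylate the tail and so set where the proteins reside. The hnRNPs coat nascent transcripts and often act in opposition, by silencing exons or by looping stretches of RNA out, and several of them also bind mature mRNA. Many genes of both groups limit their own output through alternative exons with early stop codons, whose inclusion sends the mRNA to nonsense-mediated decay. GSK3B encodes a serine/threonine kinase best known for marking beta-catenin for destruction.

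Library totals ran from 32379369 to 33558362 counts, and 14409 genes passed the filter on low counts and were tested together. GSK3B itself stood at 98.9, 97.6 and 91.3 CPM (counts scaled to a common library total, with TMM factors of 0.992 to 1.008) in the wild-type libraries and at 45.9, 47.5 and 47.1 CPM in the knockouts. This is 48.8% of the wild-type level, a log2 fold change of -1.04 ± 0.05 (SE, edgeR's quasi-likelihood test, adjusted p = 1.88e-12). An exact two-sided permutation test of the log2 CPM gave p = 0.1, the smallest that 3 against 3 libraries allow. Of 10 colon epithelial markers, EPCAM, KRT8, KRT18, CDX2 and VIL1 averaged 1 CPM or more and CDH1 and LGALS4 were listed at 0, with summed levels of 136 to 143 CPM in the wild-type and 139 to 144 CPM in the knockout libraries, carried mostly by KRT18 and KRT8. EPCAM was low, at 3.61, 4.28 and 2.40 CPM in the wild-type libraries and at 1.03, 1.06 and 1.11 CPM in the knockouts, without overlap. Fibroblast markers summed to 2.31 to 6.06 CPM in the wild-type and 1.03 to 1.23 CPM in the knockout libraries. The highest sum was that of wild-type replicate 3. There COL1A1 (1.83 CPM), COL1A2 (0.69), COL3A1 (0.54) and DCN (0.75) were above every other library. PDGFRB, the 1 of 7 that averaged at least 1 CPM, read 1.61, 2.14 and 2.01 CPM against 0.79, 0.56 and 0.78 CPM, without overlap. Of 5 leukocyte markers CD68 alone averaged at least 1 CPM, and PTPRC and CD3E were listed at 0. Whether these markers have a part in the results was not tested. Wild-type replicate 3 stood apart from the other libraries along GC content: its median deviation from the mean of the 6 libraries was -0.12 on the log2 scale over the quintile of genes with the lowest transcript GC content and 0.12 over the quintile with the highest, while the other libraries lay between -0.02 and 0.06 and between -0.04 and 0.01.

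Among the 37 single genes, 31 passed the filter (11 SR protein genes and 20 hnRNP genes). Of these 31, 16 rose in the knockout libraries at an adjusted p under 0.05 and none fell, and 15 did not pass. Among all tested genes 13.5% changed, 6.36% in the higher and 7.18% in the lower direction, against 51.6% of the 31, all higher. By the unadjusted p, 22 of the 31 were higher and 1 was lower at 0.05. The share of all tested genes at that unadjusted threshold was not taken, so these counts have no background to be read against. DESeq2 and limma-voom also called 0 of the 31 lower, and the shares of all tested genes that they called were not taken. Counts set the precision of the test, and all 31 had more CPM, not scaled by length, than the median tested gene (28.6 CPM). Among the 6083 genes at or above the lowest tested member (37.6 CPM) 11.7% rose. The count of 16 moved with single libraries: 18 rose without wild-type replicate 3, 20 without wild-type replicate 1, 12 without wild-type replicate 2 or knockout replicate 1, 9 without knockout replicate 2 and 10 without knockout replicate 3. Shares of all tested genes in these fits were not taken, so a shift of the members cannot be told from one over the whole table.

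The changes were small. The fold changes of the 31 ran from -0.08 to 0.28 on the log2 scale, 29 of them above 0, with a median of 0.13 for the 31, of 0.17 for the SR protein genes and of 0.10 for the hnRNP genes, against 0.00 for all tested genes. Over the genes that passed, the median size of the change was 0.18 for members and 0.25 for the whole table. In 21 of the 31, 9 of them SR protein genes and 12 hnRNP genes, all 3 knockout libraries exceeded all 3 wild-type libraries, which held for 15.4% of all tested genes. HNRNPUL2 alone had all knockout libraries below all wild-type libraries, which held for 15.9% of all tested genes. Replicates lay close together: the coefficient of variation of a member had a median of 3.12% over the wild-type libraries (range 0.461% to 11.9%) and of 2.07% over the knockout libraries (0.408% to 6.54%). The median deviation of the members from their 6-library mean was -0.03, -0.06 and -0.10 on the log2 scale over the wild-type libraries and 0.05, 0.05 and 0.07 over the knockout libraries, each in order of replicate number. Wild-type replicate 3 was the lowest wild-type library for 19 of the 31 members, against 41.0% of all tested genes.

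**Figure D1:**
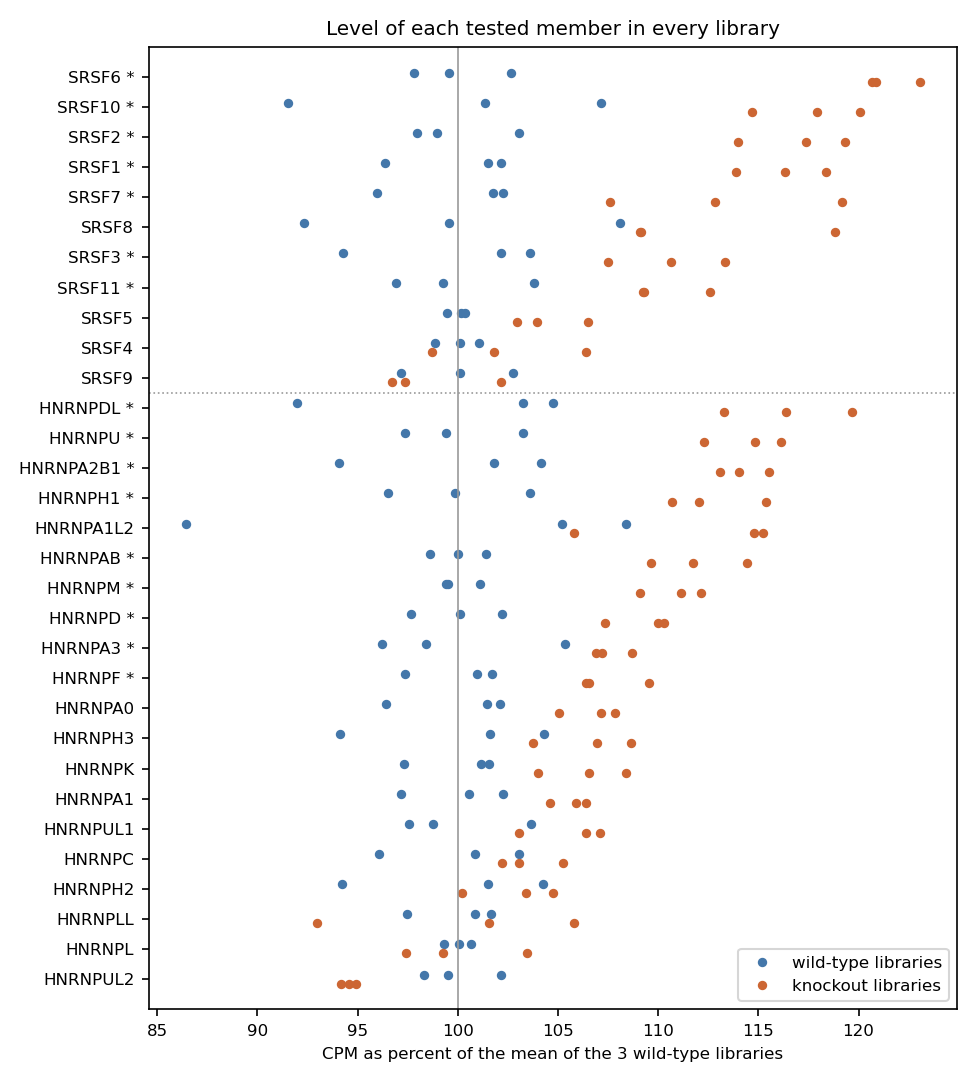
Level of the 31 tested members in every library, as percent of the mean CPM of the 3 wild-type libraries (horizontal axis). Points are single libraries, SR protein genes stand above the dotted line and hnRNP genes below it, and an asterisk marks the 16 genes that rose; knockout points lie to the right of all wild-type points in 21 genes.

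The regions before the RefSeq start are shown for the 4 members with the firmest increase (the 2 SR protein genes and the 2 hnRNP genes with the smallest p). Each is the 200 bases before the RefSeq start of the gene (GRCh38.p14), printed 5′ to 3′ along the gene's own strand. The gene spans printed elsewhere are those of GENCODE 29, whose starts differ. The HNRNPA2B1 stretch lies wholly inside its GENCODE span, and those of SRSF1 and HNRNPU lie partly inside theirs. Capitals mark matches on either strand to any of 3 short promoter motifs. One is the GC box, whose letters are GGGCGG and which Sp family factors bind. Another is the CCAAT box, the motif of the trimeric factor NF-Y, and the last is the core of ETS factor sites, spelled CGGAAG. SRSF6 lies on the forward strand (chr20:43457696-43457895), and SRSF1 (chr17:58007247-58007446), HNRNPU (chr1:244864544-244864743) and HNRNPA2B1 (chr7:26200747-26200946) lie on the reverse strand.
SRSF6: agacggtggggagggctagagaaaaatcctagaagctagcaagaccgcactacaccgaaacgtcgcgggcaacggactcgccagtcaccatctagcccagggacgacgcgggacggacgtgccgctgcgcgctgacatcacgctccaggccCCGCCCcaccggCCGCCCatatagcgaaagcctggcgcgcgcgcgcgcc
SRSF1: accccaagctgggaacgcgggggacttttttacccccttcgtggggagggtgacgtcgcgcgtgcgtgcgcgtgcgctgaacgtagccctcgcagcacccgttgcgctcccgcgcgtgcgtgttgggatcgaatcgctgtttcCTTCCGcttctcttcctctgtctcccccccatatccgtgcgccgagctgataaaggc
HNRNPU: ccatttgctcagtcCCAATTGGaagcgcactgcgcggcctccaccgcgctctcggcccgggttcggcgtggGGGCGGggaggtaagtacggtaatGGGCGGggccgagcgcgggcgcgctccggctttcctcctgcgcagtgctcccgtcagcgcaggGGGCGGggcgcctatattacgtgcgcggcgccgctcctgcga
HNRNPA2B1: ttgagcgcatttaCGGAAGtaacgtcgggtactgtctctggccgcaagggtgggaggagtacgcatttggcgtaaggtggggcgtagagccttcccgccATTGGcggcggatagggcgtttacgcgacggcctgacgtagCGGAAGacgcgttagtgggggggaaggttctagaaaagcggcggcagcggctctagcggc
The SRSF6 stretch holds 2 GC boxes and the SRSF1 stretch 1 ETS core. HNRNPU carries 3 GC boxes and, in its first capitals, 2 CCAAT boxes on opposite strands that overlap. HNRNPA2B1 carries 1 CCAAT box between 2 ETS cores. The 4 stretches are rich in CpG, with 27, 25, 29 and 23 CpG dinucleotides in that order, and no one motif is common to all 4.

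SR protein genes rose in 7 of 11 cases. SRSF6 (chr20:43457928-43464247, forward strand, GRCh38), a regulator of alternative exons, had the largest fold change of the tested members: it stood at 191, 200 and 194 CPM in the wild-type and at 236, 236 and 240 CPM in the knockout libraries. The gap between the groups was several times the spread within them, and the fitted increase was 21.5% (log2 fold change 0.28 ± 0.037 SE, adjusted p = 1.37e-05). SRSF1 (chr17:58003360-58007346, reverse strand), the archetype of the family and an oncogene product, was the most abundant SR mRNA, at 503, 506 and 478 CPM in the wild-type and 576, 587 and 564 CPM in the knockout libraries. It rose by 16.2% (0.22 ± 0.034 SE, adjusted p = 0.000108). SRSF2 (chr17:76734115-76737374, reverse strand), a marker of nuclear speckles, went from 260, 274 and 263 CPM to 303, 312 and 317 CPM. Its increase was 16.9% (0.23 ± 0.036 SE, adjusted p = 0.000157), and the groups did not overlap. In SRSF10 (chr1:23964804-23980927, reverse strand), which acts as a splicing repressor when dephosphorylated, wild-type libraries read 170, 161 and 146 CPM and knockout libraries 191, 188 and 182 CPM. It rose by 17.6% (0.23 ± 0.047 SE, adjusted p = 0.0017). These 4 SR protein genes passed the test under every one of the 15 alternative fits.

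The other SR protein genes that rose did so by less, and their calls were less firm. SRSF3 (chr6:36594353-36605600, forward strand), the smallest SR protein and an adaptor of mRNA export, stood at 321, 325 and 296 CPM in the wild-type and at 337, 347 and 356 CPM in the knockout libraries (0.14 ± 0.039 SE, adjusted p = 0.0145). SRSF7 (chr2:38743599-38751494, reverse strand), which has a zinc knuckle beside its RNA recognition motif, went from 121, 121 and 114 CPM to 127, 134 and 141 CPM (0.18 ± 0.046 SE, adjusted p = 0.0111). In both genes wild-type replicate 3 was the lowest library, and in both the call was lost without knockout replicate 2 and without knockout replicate 3. SRSF11 (chr1:70205682-70253052, forward strand) read 133, 127 and 124 CPM against 139, 144 and 140 CPM (0.14 ± 0.042 SE, adjusted p = 0.0268). Its value fell short of the threshold once transcript GC content was corrected for (0.06, adjusted p = 0.168).

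Of the 4 SR protein genes that did not pass, SRSF9 stood at 184, 195 and 190 CPM in the wild-type and 184, 194 and 183 CPM in the knockout libraries, with a log2 fold change of -0.02 ± 0.040 (SE, adjusted p = 0.816). SRSF4, one of the larger SR proteins, was at 117, 115 and 118 CPM against 118, 115 and 124 CPM (0.03 ± 0.044 SE, adjusted p = 0.678). The libraries of the groups overlapped in both. For SRSF5, the levels were 77.2, 77.9 and 77.8 CPM against 79.9, 80.7 and 82.7 CPM, which do not overlap, but the fold change of 0.06 ± 0.046 (SE) gave an adjusted p of 0.398. SRSF8, an intron-poor gene that resembles SRSF2, came nearest to the threshold, with 69.2, 59.1 and 63.8 CPM against 76.1, 69.9 and 69.8 CPM (0.17 ± 0.057 SE, adjusted p = 0.052). It passed with the GC correction (adjusted p = 0.0143) and with the replicate number as a block (adjusted p = 0.0196). SRSF12 was too low to test, with 2, 0 and 4 counts in the wild-type libraries and 0 in each knockout library.

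Among the A/B group of hnRNPs, which bind UAG-containing and purine-rich sites, 3 of 6 tested genes rose. HNRNPA2B1 (chr7:26173057-26201529, reverse strand) stood at 1076, 1051 and 972 CPM in the wild-type and at 1178, 1194 and 1168 CPM in the knockout libraries. The increase was 14.2% (0.19 ± 0.035 SE, adjusted p = 0.000582), and the groups lay apart. HNRNPAB (chr5:178204507-178211163, forward strand) went from 235, 241 and 238 CPM to 261, 272 and 266 CPM (0.16 ± 0.036 SE, adjusted p = 0.00372). HNRNPA3 (chr2:177212563-177223958, forward strand) went from 543, 507 and 496 CPM to 551, 552 and 560 CPM and only just passed (0.11 ± 0.035 SE, adjusted p = 0.0473), with DESeq2 giving an adjusted p of 0.0534. Its value shrank to 0.03 (adjusted p = 0.392) with the GC correction. HNRNPA1, which antagonises SRSF1 at many exons and was the most abundant member, did not pass: 1365, 1343 and 1297 CPM in the wild-type against 1396, 1414 and 1420 CPM in the knockout libraries gave 0.08 ± 0.030 (SE, adjusted p = 0.0875). It passed with the GC correction (0.07, adjusted p = 0.0231). HNRNPA1 shares near-identical sequence with HNRNPA1L2 and with the pseudogene HNRNPA1P10, and how reads that fit several copies were counted is not given in the sources used here, so the split of counts among these 3 is uncertain. HNRNPA1L2, named for this reason after its values were seen, had 77.7, 75.3 and 61.9 CPM against 75.8, 82.5 and 82.2 CPM, and its groups overlapped (0.16 ± 0.065 SE, adjusted p = 0.102).

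The neighbouring genes HNRNPD and HNRNPDL on chromosome 4 both rose. HNRNPDL (chr4:82422564-82430408, reverse strand) had the larger value, from 250, 247 and 220 CPM to 271, 286 and 278 CPM, an increase of 16.5% (0.22 ± 0.043 SE, adjusted p = 0.00132). HNRNPD (chr4:82352498-82374503, reverse strand), which binds AU-rich elements and directs mRNA decay, went from 274, 268 and 261 CPM to 295, 294 and 287 CPM (0.13 ± 0.035 SE, adjusted p = 0.0187). The HNRNPDL increase was as large with the GC correction (0.23, adjusted p = 1.25e-06), whereas that of HNRNPD was reduced to 0.04 (adjusted p = 0.26).

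Within the H/F group, whose proteins bind runs of G, HNRNPH1 and HNRNPF rose. HNRNPH1 (chr5:179614178-179634784, reverse strand) stood at 272, 262 and 253 CPM in the wild-type and 303, 294 and 290 CPM in the knockout libraries, 12.7% higher (0.17 ± 0.037 SE, adjusted p = 0.00284). HNRNPF (chr10:43385617-43409166, reverse strand) went from 713, 718 and 687 CPM to 752, 751 and 773 CPM, 7.48% higher (0.10 ± 0.032 SE, adjusted p = 0.0313). No knockout library of either gene reached down to a wild-type library. The paralogues HNRNPH2 and HNRNPH3 did not pass (0.04, adjusted p = 0.617, and 0.09, adjusted p = 0.193). HNRNPH2 shares 362 exonic bases with the readthrough symbol RPL36A-HNRNPH2, so the split of counts between these symbols is uncertain. The readthrough symbol read 421, 413 and 393 CPM against 434, 436 and 427 CPM (0.08, adjusted p = 0.133).

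HNRNPU and HNRNPM rose as well. HNRNPU (chr1:244840638-244864560, reverse strand), also known as scaffold attachment factor A for its binding to chromatin and nuclear RNA, stood at 727, 700 and 686 CPM in the wild-type and at 809, 818 and 791 CPM in the knockout libraries. It was 14.4% higher (0.19 ± 0.032 SE, adjusted p = 0.000251). HNRNPM (chr19:8444767-8489114, forward strand), a binder of GU-rich sequence, went from 288, 288 and 293 CPM to 322, 316 and 325 CPM (0.15 ± 0.034 SE, adjusted p = 0.00516). The knockout libraries of both genes lay above all wild-type libraries. The related HNRNPUL1 and HNRNPUL2 did not pass. HNRNPUL2, singled out after its values were seen, was the lowest of the 31 single genes in fold change, at 196, 198 and 203 CPM against 189, 187 and 188 CPM (-0.08 ± 0.038 SE, adjusted p = 0.162). The readthrough symbol HNRNPUL2-BSCL2 shares 2391 exonic bases with it and read 165, 165 and 173 CPM against 157, 157 and 159 CPM (-0.09 ± 0.040 SE, adjusted p = 0.139).

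HNRNPK and HNRNPC are abundant hnRNPs that did not pass. HNRNPK, which binds C-rich sequence, was at 791, 787 and 758 CPM in the wild-type and at 830, 810 and 844 CPM in the knockout libraries (0.09 ± 0.032 SE, adjusted p = 0.0679), without overlap. HNRNPC, which binds runs of U and guards against inclusion of Alu exons, was at 720, 705 and 671 CPM against 714, 720 and 736 CPM, with overlap (0.05 ± 0.033 SE, adjusted p = 0.352). HNRNPA0, HNRNPL and HNRNPLL also did not pass, at 0.09, 0.00 and 0.00. HNRNPCL1, HNRNPCL2, HNRNPCL3, HNRNPCL4 and HNRNPR were listed at 0 in all 6 libraries. How the symbols were assigned is not given in the sources used here, so a listed 0 is not read as absence of the mRNA.

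**Figure D2:**
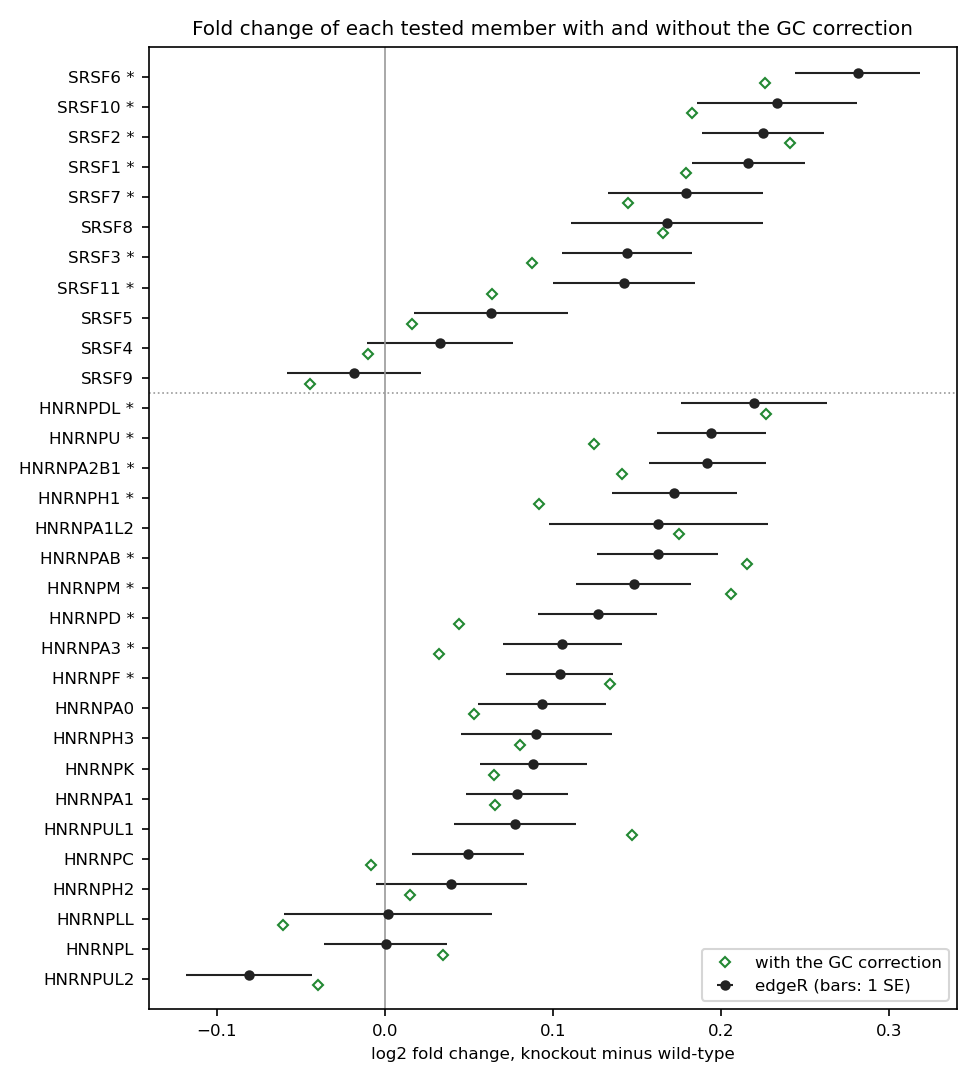
Log2 fold change, knockout minus wild-type, of the 31 tested members. Filled points with bars give edgeR's value and 1 SE, open diamonds the value with the GC correction, and an asterisk marks genes that rose; SR protein genes stand above the dotted line, where the values run from -0.02 for SRSF9 to 0.28 for SRSF6.

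Summed over the single genes, the members made up 1.08%, 1.06% and 1.03% of all counts in the wild-type libraries and 1.13%, 1.14% and 1.14% in the knockout libraries. The means were 1.06% ± 0.026 (SD, n = 3) and 1.14% ± 0.0043 (SD, n = 3), a ratio of 1.08. SR protein genes took 0.216%, 0.217% and 0.208% of the wild-type counts and 0.236%, 0.239% and 0.238% of the knockout counts, and hnRNP genes 0.861%, 0.848% and 0.820% against 0.897%, 0.901% and 0.902%. The ratios were 1.11 and 1.07. Without HNRNPA1 the ratio for all members was 1.08.

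To order the members by level, CPM were divided by the length of the merged exons in kilobases. On this scale the wild-type level was highest for HNRNPA1 (262 ± 6.8, SD, n = 3), followed by HNRNPF (217 ± 5.1), HNRNPK (152 ± 3.6) and SRSF1 (148 ± 4.7). HNRNPK and SRSF1 did not differ beyond their spread, nor did HNRNPA2B1 (111 ± 5.9) and HNRNPAB (111 ± 1.6). The lowest SR protein genes were SRSF8, SRSF10 (15.5 ± 1.2), SRSF11 (15.1 ± 0.53), SRSF5 (14.5) and SRSF4 (13.1), and HNRNPLL, which is best known from lymphocytes, was the lowest tested member (6.34). With the readthrough symbol counted among the members, HNRNPA1 stood 6.17 times above the median member. It stood 7.40 times above it when the mean transcript length was used instead. The order depends on the length used: with mean transcript lengths HNRNPC and HNRNPK came before SRSF1 and HNRNPF, and Spearman's rho between both orders was 0.73 over 32 members, the readthrough symbol included, as a description across genes.

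**Figure D3:**
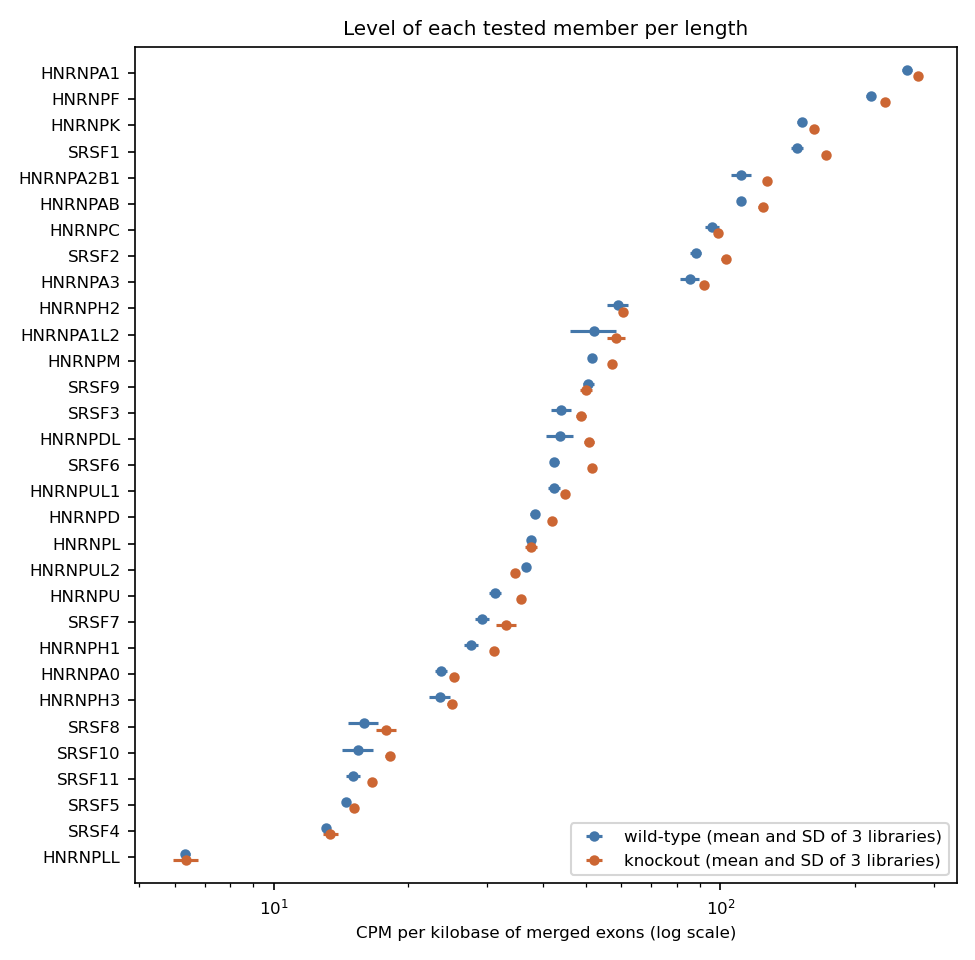
Level of the 31 tested members in CPM per kilobase of merged exons, on a log axis. Points are means and bars SDs of 3 wild-type (blue) and 3 knockout (orange) libraries; wild-type levels run from 6.34 for HNRNPLL to 262 for HNRNPA1.

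The members are AT-rich transcripts, and fold changes in these libraries moved with GC content. The median GC content of the longest annotated transcript was 41.3% for the 31 tested members against 48.7% for all tested genes, and 26 of the 31 lay below the latter. Across 5 quintiles of GC content the share of all tested genes that rose went from 14.0% in the lowest (25.0% to 41.1% GC) through 8.61%, 5.25% and 3.48% to 1.45% in the highest, and the median fold change of all tested genes from 0.08 to -0.07. In the lowest quintile, 9 of 14 members rose, with a median of 0.13; in the second, 4 of 11, with a median of 0.16. The third held 2 members, of which HNRNPF rose, and the fourth held 4, of which HNRNPAB and HNRNPM rose. No member lay in the highest. A fit in which each library was corrected for a smooth trend over GC content called 18 of the 31 higher and 0 lower. Among all tested genes that fit called 13.7% higher, and the share called lower was not taken. Of the 16 genes, 13 kept their call, SRSF11, HNRNPA3 and HNRNPD lost it, and SRSF8, HNRNPA1, HNRNPA1L2, HNRNPK and HNRNPUL1 gained one. The median fold change became 0.09 for the members (0.14 for SR protein and 0.07 for hnRNP genes) and 0.02 for all tested genes. Of the 16, SRSF2, HNRNPAB, HNRNPDL, HNRNPM and HNRNPF had larger values after the correction than before it. The median of all tested genes also moved up, from 0.0007 to 0.0231. SRSF2 (0.225 to 0.241) and HNRNPDL (0.220 to 0.227) gained less than that median did.

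**Figure D4:**
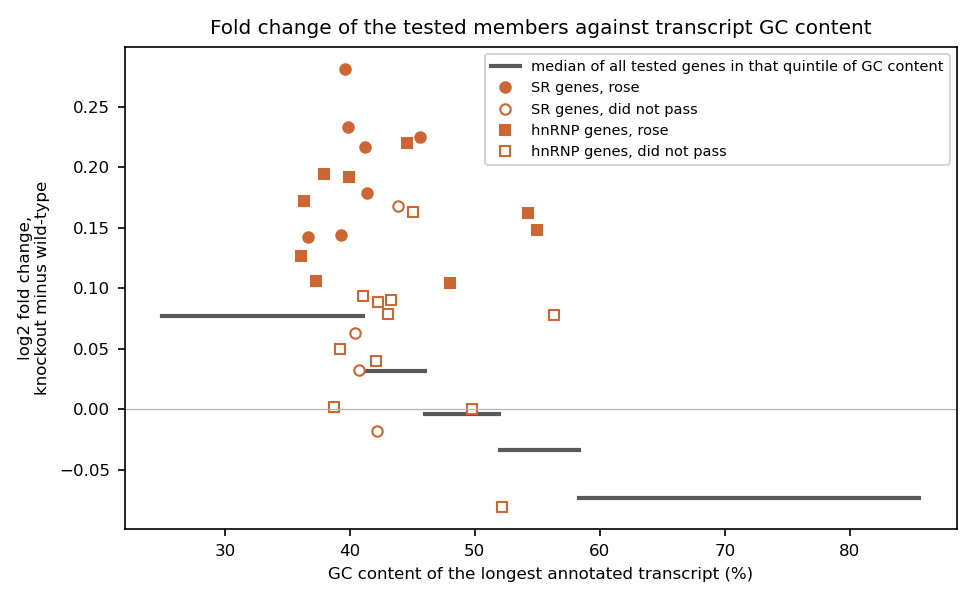
Log2 fold change of the 31 tested members against GC content of the longest annotated transcript. Circles are SR protein genes and squares hnRNP genes, filled where the gene rose, and grey lines are the medians of all tested genes in each quintile of GC content, which fall from 0.08 to -0.07; most members in the lower quintiles lie above the grey line of their quintile.

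In the GENCODE 29 annotation, a transcript marked for nonsense-mediated decay was listed for all 11 tested SR protein genes and for 12 of the 20 tested hnRNP genes (60.0%), against 43.2% of 12242 tested protein-coding genes. With the untested genes the counts were 12 of 12 and 13 of 25. HNRNPU had 9 such transcripts among 31 and SRSF7 had 6 among 12, while SRSF6 had 1 of only 2. HNRNPAB, HNRNPF and HNRNPA3, which rose, have none listed. A transcript with a retained intron was listed for 8 of the 11 tested SR protein genes (72.7%), 14 of the 20 tested hnRNP genes (70.0%) and 57.2% of the tested protein-coding genes. Counts per gene do not separate these transcripts from those that encode the full protein, so an increase in the count says nothing of which form increased.

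Exons of several members overlap those of a gene on the opposite strand, and whether counting used strand is not given in the sources used here, so the reads of such partners cannot be told apart. HNRNPU shares 3502 exonic bases with COX20, SRSF9 shares 1729 with GATC, SRSF2 shares 1106 with MFSD11 and HNRNPA2B1 shares 368 with CBX3. Of these partners CBX3, a heterochromatin protein gene, rose (0.17, adjusted p = 0.0165), while MFSD11 (0.15, adjusted p = 0.0794), COX20 (0.11, adjusted p = 0.254) and GATC (-0.02, adjusted p = 0.743) did not pass. Average wild-type levels of these partners, not scaled by length, were 215 CPM for CBX3, 205 CPM for GATC and 43.3 CPM for both MFSD11 and COX20.

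Promoter windows of 300 bases (250 before to 50 after the RefSeq start, GRCh38.p14) were matched for 34 of the 37 single genes, 29 of them tested; SRSF2, HNRNPA1 and HNRNPCL3 had no entry. The median GC content of the 29 was 63.7%, against 58.3% over all 27305 promoters in the table, and their median CpG count was 30 against 14, with a range of 3 to 48. The 27305 promoters were not limited to tested genes, here or in the motif shares below, so the 2 sets are unlike in expression. A GC box was found on either strand in 20 of the 29 (44.6% of all promoters hold one), CCAAT in 14 (35.7%), the ETS core in 13 (19.9%), the E-box CACGTG in 7 (7.44%), TATAAA in 5 (12.0%) and the cyclic AMP response element TGACGTCA in 0 (1.98%). The E-box matches were in HNRNPA3, HNRNPD, HNRNPDL, HNRNPH2, HNRNPH3, HNRNPM and HNRNPUL1 and in no SR protein gene. Of the 15 matched genes that rose and the 14 that did not pass, the GC box was found in 9 and 11, CCAAT in 6 and 8, the ETS core in 6 and 7, the E-box in 4 and 3 and TATAAA in 4 and 1. These are matches of letters only, not sites of binding.

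Other genes of the splicing pathway were read from 6 lists. Of 123 genes 118 were tested, and 30 rose and 3 fell, where 6.36% of all tested genes rose and 7.18% fell. Without wild-type replicate 2, or without knockout replicate 1, 2 or 3, the number that rose was 15, 15, 14 and 17. It was 35 without wild-type replicate 1 or 3. Shares of all tested genes in these fits were not taken, so a shift of the lists cannot be told from one over the whole table. Among hnRNP proteins with other symbols 9 of 16 rose and none fell, with a median fold change of 0.12. PTBP1, which represses exons through pyrimidine-rich sites, went from 378, 393 and 421 CPM to 443, 458 and 451 CPM (0.18 ± 0.038 SE, adjusted p = 0.00201). SYNCRIP (0.18, adjusted p = 0.00382) and MATR3 (0.16, adjusted p = 0.014) rose as well. Among SR-related proteins and coactivators 9 of 22 rose and 1 fell, with a median of 0.11. PNN went from 134, 121 and 113 CPM to 163, 153 and 147 CPM (0.33 ± 0.053 SE, adjusted p = 0.000165), and BCLAF1 (0.29, adjusted p = 6.96e-05) and TRA2B, a splicing activator with arginine/serine domains (0.20, adjusted p = 0.00407), rose too. SCAF1 fell, from 35.3, 35.8 and 41.0 CPM to 30.2, 28.9 and 27.5 CPM (-0.37 ± 0.068 SE, adjusted p = 0.000659).

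In the list of kinases, phosphatases and nuclear import receptors, not all of which act on SR proteins, 2 of 13 rose and 1 fell, with a median of 0.06. For this list and the next 3, the shares called stand beside 6.36% higher and 7.18% lower over all tested genes, and 11.7% higher over genes at or above 37.6 CPM. PRPF4B, a spliceosomal kinase (0.28, adjusted p = 0.00143), and TNPO1, a nuclear import receptor (0.20, adjusted p = 0.00145), rose, and CLK3, one of the kinases of SR tails, fell from 24.2, 28.0 and 28.3 CPM to 21.4, 20.4 and 22.6 CPM (-0.32 ± 0.075 SE, adjusted p = 0.00589). Of 24 other splicing regulators 4 rose and 1 fell (median 0.04), among them RBM25 (0.29, adjusted p = 0.000168), SFPQ (0.18, adjusted p = 0.000715) and TIAL1 (0.20, adjusted p = 0.00608) higher and RBFOX2 (-0.13, adjusted p = 0.0207) lower. In the list of spliceosome components, not all of which belong to the U1, U2 or SF3 particles, 3 of 28 rose, a share near that background. No gene of this list fell (median 0.07). Those that rose were U2AF2 (0.16, adjusted p = 0.00741), which reads the polypyrimidine tract, SNRPD1 (0.19, adjusted p = 0.00879) and SF1 (0.14, adjusted p = 0.0133). Factors of nonsense-mediated decay rose in 3 of 15 cases and fell in none (median 0.09): SMG1 (0.14, adjusted p = 0.0104), UPF2 (0.22, adjusted p = 0.0154) and SMG8 (0.15, adjusted p = 0.0382). With the GC correction the 118 genes gave 50 higher and 4 lower, of which the spliceosome components made up 13 higher and 0 lower. In that fit 13.7% of all tested genes were higher, and the share that was lower was not taken. Differences between the lists were not tested.

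**Figure D5:**
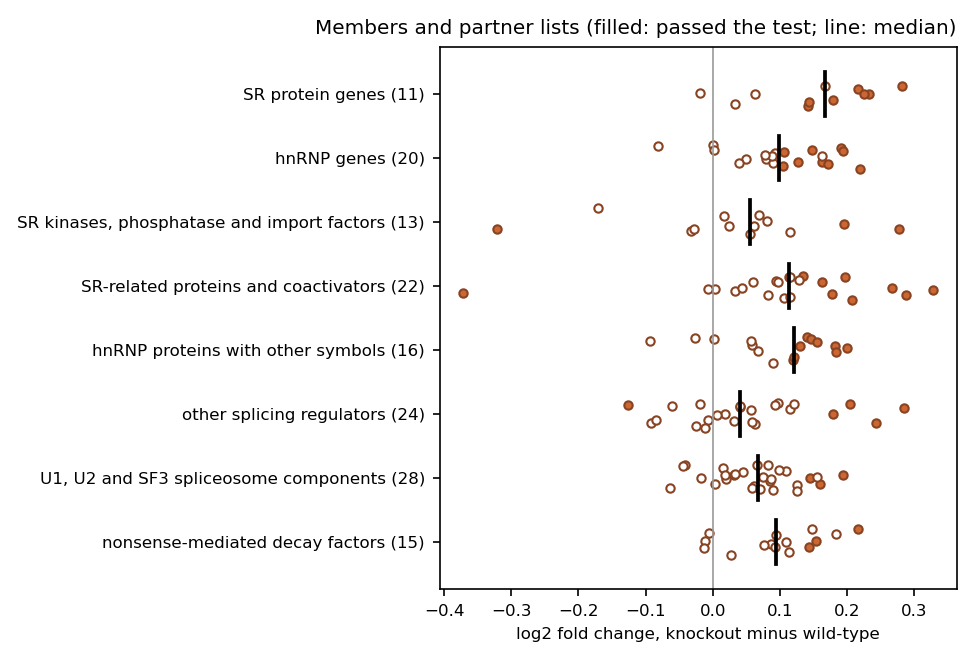
Log2 fold change, knockout minus wild-type, of the tested genes in the SR and hnRNP groups and in 6 lists of splicing-pathway genes, with the number tested in brackets. Points are genes, filled where they passed the test, and black lines are medians, which run from 0.04 for other splicing regulators to 0.17 for SR protein genes.

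No member fell in any of the 6 fits that leave out 1 library. SRSF1, SRSF2, SRSF6, SRSF10, HNRNPA2B1, HNRNPDL, HNRNPH1, HNRNPM and HNRNPU rose in all 6 of them, and also under the other 9 alternatives. SRSF11, HNRNPA3, HNRNPD and HNRNPF lost their call without wild-type replicate 2 and without each knockout replicate, with adjusted p-values from 0.0503 (HNRNPD without knockout replicate 3) to 0.187 (HNRNPA3 without wild-type replicate 2), and HNRNPAB lost it without knockout replicate 2 (adjusted p = 0.055). Their fold changes in these fits stayed between 0.09 and 0.15.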

How the data were processed

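The deposited files hold raw read counts per gene symbol, 1 file per library; per the submitters' processing notes hg38, TopHat, limma and edgeR were used, with no versions or roles given. The counting program, the gene annotation, the use of strand and the treatment of reads with several matches are not given in the sources at hand. Per the labels' protocols, libraries were made from polyadenylated RNA and read as 150 bp pairs.

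Genes were kept with edgeR's filterByExpr (minimum count 10, minimum total 15), scaled by TMM and tested with edgeR's quasi-likelihood test (edgeR 4.0.16, R 4.3.3), with Benjamini-Hochberg adjustment over all 14409 tested genes and a threshold of 0.05. CPM are counts scaled by the library total times its TMM factor, while shares of counts use the plain totals. Log2 deviations of libraries used a prior count of 2. Symbols were matched to GENCODE 29 (26216 of 28278) for positions, lengths and GC content, which 95.9% of tested genes have. The main edgeR fit was also run on simulated counts, and the outcome is not reported here. Alternatives were DESeq2 1.42.0 and limma-voom (limma 3.58.1) as tests, DESeq2's size factors and plain library size as scaling, no filter, a minimum of 1 CPM in at least 3 libraries, a replicate block, a spline of 5 degrees of freedom over GC content per library, that spline with the block, and leaving out each library.

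The members and lists were chosen with earlier results of these data known, so no p-value over a list is given. Values in every library are given for members that passed; of the others, the 3 SR protein and 3 hnRNP genes with the highest mean CPM, the 2 with the smallest p and those listed at 0 were named by rule, and any further name was added after its values were seen. Of each list, up to 4 changed genes with the smallest p were named; 1 gene that this rule picks is not reported here.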

Additional observations from a re-analysis of the deposited data

Results flagged for a closer look

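HNRNPA1P10, a pseudogene symbol that the choice of members left out, was higher in all knockout than in all wild-type libraries: 47.0, 43.7 and 42.8 CPM against 51.2, 54.3 and 57.1 CPM, a log2 fold change of 0.28 (edgeR, adjusted p = 0.0019). It was singled out as a signal in rows that the comparisons of members do not use, and it shares near-identical sequence with HNRNPA1.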

How the results depend on the processing

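No called member changed sign under any alternative: of 240 values of called members 208 kept their call and 32 lost it. The number of members that rose was 13 with library-size scaling, 15 with DESeq2 and with the filter of 1 CPM, 16 with DESeq2's size factors and with limma-voom, 18 without a filter and with the GC correction, and 17 with the GC correction and replicate block together, with 0 lower in each. Leaving out single libraries gave 9 to 20 changed members, all higher (SR protein genes 4 to 8, hnRNP genes 5 to 12), and 16 to 38 changed genes of the splicing lists, 14 to 35 of them higher. In those lists 54 changed and 50 rose with the GC correction, and the same counts were found with the GC correction and replicate block. Of all alternative fits, only the GC correction had its share of higher genes over all tested genes taken. In the others a shift of the members or lists cannot be told from one over the whole table. The median fold change of the members was 0.11 with library-size scaling, 0.088 with the GC correction, 0.087 with that correction and the block, and 0.10 to 0.14 with 1 library left out. The ratio of the highest to the median level per length, the readthrough symbol included, was 7.40 with mean transcript lengths.

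Signs turned only for members that did not pass. With the GC correction, and with that correction and the block, HNRNPC was at -0.0079 and -0.0082, SRSF4 at -0.010 and -0.0102 and HNRNPLL at -0.061 and -0.062. With library-size scaling, without a filter and with the filter of 1 CPM, HNRNPL was at -0.018, -0.0015 and -0.0053 and HNRNPLL at -0.017, -0.00015 and -0.0040. With 1 library left out, HNRNPL ran from -0.023 to 0.020, HNRNPLL from -0.039 to 0.049, HNRNPH2 from -0.0012 to 0.067 and SRSF9 from -0.046 to 0.0023. The cause of these differences was not tested.

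The replicate block gave 18 members that rose, all 16 among them; same-numbered libraries correlated at 0.0709, -0.00406 and 0.0306 in their deviations, and not every library correlated best with its own number, so the numbers were not treated as pairs. At this depth SRSF12, with at most 4 counts in a library, could not be tested.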
